A study of Mus musculus with 16 samples.

Results

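The genes of triglyceride synthesis were followed in livers of mice that differed in diet and in exposure to perfluorooctanoic acid (PFOA), a persistent fluorinated surfactant. The 10 members were taken by symbol from the gene count table, where each has 1 of 53465 rows, and all 10 passed the filter on low counts that left 14998 genes to test. They are Gpam, Agpat2 and Agpat3 of the glycerol phosphate route, the lipins Lpin1, Lpin2 and Lpin3, Mogat1 of the monoacylglycerol route, the diacylglycerol acyltransferases Dgat1 and Dgat2, and Pnpla3. Liver RNA came from 16 C57BL/6 mice in 4 groups of 4, each library from a separate mouse aged 29 to 30 weeks. HFD_PFOA mice ate a high-fat diet and received PFOA, CD_PFOA mice ate a control diet and received PFOA, and HFD_vehicle and CD_vehicle mice ate the same 2 diets and received vehicle. Every mouse ate its diet for 16 weeks before dosing and for the 8 weeks of dosing. The labels used here state neither a dose of PFOA nor the sex of the animals.

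Triglyceride is built in liver by 2 routes that meet at diacylglycerol. In the glycerol phosphate route, Gpam (mitochondrial glycerol-3-phosphate acyltransferase) adds the first fatty acid, the Agpat enzymes add the second to give phosphatidic acid, and the lipins remove the phosphate. In the monoacylglycerol route, which is best known from the intestine, Mogat1 acylates monoacylglycerol directly to diacylglycerol. Dgat1 and Dgat2 then add the last fatty acid. Pnpla3 encodes a lipid droplet protein whose human counterpart carries a common variant linked to fatty liver. In liver, Gpam and Pnpla3 are known targets of the lipogenic factor SREBP-1c. Lpin1 also acts as a coactivator of the fatty acid sensor PPARA, which PFOA is known to activate.

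The libraries held 14456524 to 25778125 counts, and the genes tested held 99.9% of them. The 10 hepatocyte markers were detected in every library, with a summed level of 60966 to 74245 CPM (counts per 1e+06 counts, after TMM scaling of each library) in HFD_PFOA, 69490 to 85915 in CD_PFOA, 88890 to 103795 in HFD_vehicle and 116841 to 149378 in CD_vehicle. Alb alone averaged 39571 CPM in HFD_PFOA, 51819 in CD_PFOA, 62500 in HFD_vehicle and 95245 in CD_vehicle. On each diet 8 of the 10 markers were lower with PFOA and 0 higher, by the test given below. The mean of Cyp2e1 did not fall, at 6074 CPM in HFD_PFOA against 5139 in HFD_vehicle, and 7000 in CD_PFOA against 6474 in CD_vehicle. In bulk liver RNA, fewer cells of a type, less RNA per cell and a change in the marker genes themselves cannot be told apart. Libraries CD_vehicle 1 and CD_PFOA 1 stood apart from the other 3 of their groups in several members, as described with each gene. Pairs that held CD_vehicle 1 also differed more over all genes than any other pair within a group, as given with the processing. In CD_vehicle 1 the acute phase gene Fgb was at 13197 CPM, against 4981 to 6650 CPM in the other 3 CD_vehicle libraries. In CD_vehicle 4 the summed B cell markers were at 649 CPM, against 18.4 to 32.0 CPM in the other 3.

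Each comparison was tested with edgeR's quasi-likelihood test over the 14998 genes, and a gene was called at a Benjamini-Hochberg adjusted p under 0.05. With PFOA on the control diet, 6 enzymes were called: Mogat1 and Agpat3 were higher, and Lpin1, Agpat2, Dgat2 and Pnpla3 were lower. Of all genes tested, 24.4% were called in that comparison, 11.8% higher and 12.6% lower. With PFOA on the high-fat diet, 2 were called, Mogat1 higher and Lpin1 lower, beside 16.5% of all genes (8.6% higher and 7.91% lower). With the high-fat diet under vehicle, 4 of 10 were called, all lower (Gpam, Agpat2, Dgat2 and Pnpla3), beside 10.4% of all genes (5.19% higher and 5.21% lower). That even split depends on the scaling: with library totals in place of TMM, 2052 genes were higher and 288 lower with the high-fat diet under vehicle, and 2160 were higher and 1376 lower with PFOA on the control diet. The member medians of the log2 fold change were −0.40, 0.17 and −0.16 in these 3 comparisons, beside −0.0024, 0.01 and −0.03 over all genes tested. With the high-fat diet under PFOA, 0 of 10 were called by edgeR, beside 0.06% of all genes (0.0467% higher and 0.0133% lower). In the interaction, the PFOA effect on the high-fat diet minus that on the control diet, 0 of 10 were called, beside 0.207% of all genes (0.0667% higher and 0.14% lower). DESeq2 called 0 and 1 members in these last comparisons, beside 179 of 11784 and 223 of 12074 genes that it gave an adjusted p. At an unadjusted p under 0.05 in edgeR they held 2 and 3 members. The share of all genes at that unadjusted threshold was not taken, so these counts cannot be set against it.

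**Figure D1:**
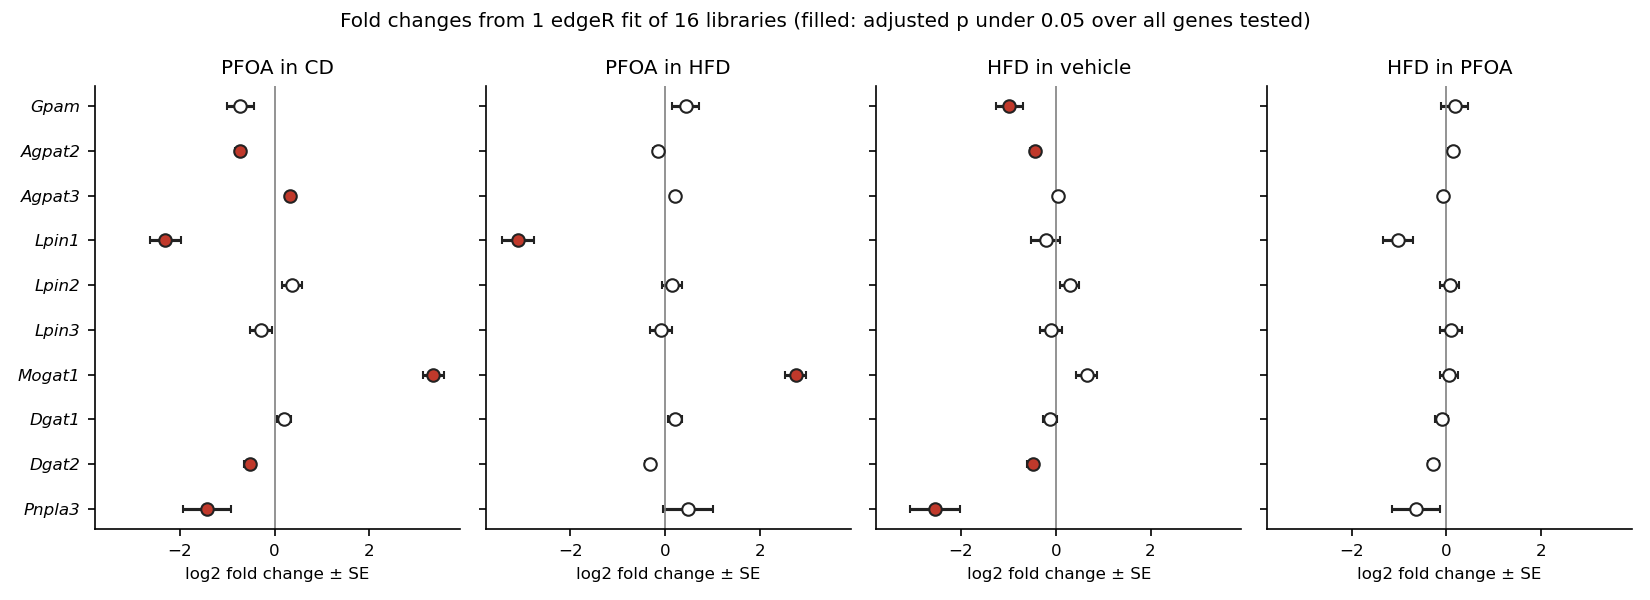
Log2 fold change of each of the 10 enzymes (horizontal position) for PFOA against vehicle on each diet and for the high-fat against the control diet under vehicle and under PFOA, with bars for the SE of the edgeR fit and filled points for calls at adjusted p under 0.05. Mogat1 lies near 3 to the right, and Lpin1 2 to 3 to the left, for PFOA on both diets.

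The start-site sequences of 4 members are shown because their RNA moved most among the libraries: Gpam, Lpin1 and Pnpla3, which were all low in CD_vehicle 1, and Mogat1, which was high under PFOA. Lpin2 was also low in CD_vehicle 1 and is not shown. Each is the RefSeq window of 250 bases before to 50 bases after the annotated start (GRCm38.p6), written 5′ to 3′ on the gene's strand. Capitals mark the sterol element core CACCCCA or its reverse complement TGGGGTG.
Gpam (chr19:55127189-55127488, minus strand): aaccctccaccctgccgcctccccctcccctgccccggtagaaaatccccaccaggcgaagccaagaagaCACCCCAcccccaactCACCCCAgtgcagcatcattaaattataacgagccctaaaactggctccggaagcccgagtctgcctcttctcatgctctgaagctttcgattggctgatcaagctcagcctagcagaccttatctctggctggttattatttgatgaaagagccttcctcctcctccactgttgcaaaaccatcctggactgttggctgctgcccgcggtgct
Lpin1 (chr12:16610917-16611216, minus strand): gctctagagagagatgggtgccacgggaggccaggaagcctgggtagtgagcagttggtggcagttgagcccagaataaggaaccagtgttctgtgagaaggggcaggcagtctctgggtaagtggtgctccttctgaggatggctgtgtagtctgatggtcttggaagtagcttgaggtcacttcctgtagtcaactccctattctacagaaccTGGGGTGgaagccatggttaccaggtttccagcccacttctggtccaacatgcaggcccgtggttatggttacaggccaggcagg
Pnpla3 (chr15:84167566-84167865, plus strand): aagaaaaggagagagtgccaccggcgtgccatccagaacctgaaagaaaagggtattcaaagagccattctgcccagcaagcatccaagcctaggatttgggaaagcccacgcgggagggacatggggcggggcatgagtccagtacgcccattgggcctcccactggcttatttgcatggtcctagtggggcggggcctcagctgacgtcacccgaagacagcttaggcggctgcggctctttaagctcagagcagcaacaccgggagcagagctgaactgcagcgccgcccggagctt
Mogat1 (chr1:78510810-78511109, plus strand): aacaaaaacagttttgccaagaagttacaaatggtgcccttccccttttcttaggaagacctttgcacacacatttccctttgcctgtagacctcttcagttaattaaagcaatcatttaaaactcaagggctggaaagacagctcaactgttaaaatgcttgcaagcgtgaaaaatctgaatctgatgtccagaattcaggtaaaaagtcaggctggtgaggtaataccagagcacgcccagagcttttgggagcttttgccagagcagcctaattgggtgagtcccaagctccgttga
The Gpam window shown held CACCCCA 2 times on the promoter strand, beginning 180 and 164 bases before the start. The other Gpam window (chr19:55099428-55099727) held 0 matches to the motifs searched. Lpin1 held CACCCCA once on the other strand, 35 bases before the start. These letters were not found in the Pnpla3, Mogat1 and Lpin2 windows, and 7.62% of the 32817 promoter windows of the table held them on either strand. The E-box palindrome CACGTG was in 1 window each of Lpin2 (9 bases before the start) and Lpin3 (base 23 after it), and in 7.15% of all windows. The PPAR element, searched as AGGTCA repeated in the same direction with any 1 base between the copies and held by 0.0396% of all windows, and the LXR element, the same repeat with any 4 bases between and held by 0.0152%, were in none of the 12 windows of the 8 members with an entry. Motifs were searched on both strands, and no match overlapped another.

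Gpam (ENSMUSG00000024978.10, chr19:55067268-55127238, minus strand of GRCm38), the acyltransferase that opens the glycerol phosphate route, did not pass the test for PFOA on either diet in the fit over all 16 libraries and was lower with the high-fat diet under vehicle. It was at 337, 353, 300.2 and 346 CPM in HFD_PFOA, against 295, 220.9, 224.8 and 246 CPM in HFD_vehicle. On the control diet it was at 224.2, 256, 302 and 397 CPM in CD_PFOA, against 157, 436, 657 and 692 CPM in CD_vehicle. All 4 HFD_PFOA livers lay above all 4 HFD_vehicle livers, whereas on the control diet the groups overlapped through CD_vehicle 1. The log2 fold change of PFOA was 0.44 ± 0.29 (SE) on the high-fat diet (edgeR adjusted p = 0.348) and −0.72 ± 0.29 on the control diet (adjusted p = 0.0755). The difference between these effects was 1.16 ± 0.40 and did not pass the test (edgeR adjusted p = 0.257). Without CD_vehicle 1, the PFOA effect on the control diet was −1.01 (edgeR adjusted p = 1.5e-04) and the difference between diets was 1.45 (adjusted p = 0.00366). Without CD_PFOA 4 the effect on the control diet was −0.90 (edgeR adjusted p = 0.0464). With no filter on low counts, Gpam was called lower on the control diet (−0.71, edgeR adjusted p = 0.00199), and the difference between diets was called too (1.15, adjusted p = 0.00404). On the high-fat diet it was called higher with PFOA in a fit of the 2 groups alone (0.43, edgeR adjusted p = 0.00293) and without both replicates 1 of the control diet, an alternative chosen after seeing the data (0.44, adjusted p = 0.0405).

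Among vehicle livers, Gpam averaged 247 ± 34.2 CPM in HFD_vehicle and 485 ± 247 CPM in CD_vehicle (SD, n = 4 each). The log2 fold change was −0.98 ± 0.29 (edgeR adjusted p = 0.0361). The call was lost in 6 of the 16 fits that left out 1 library (HFD_vehicle 2, 3 or 4 and CD_vehicle 2, 3 or 4), where the adjusted p reached 0.124. It was also lost with library totals in place of TMM (adjusted p = 0.0762) and in a fit of these 2 groups alone (adjusted p = 0.129). Under PFOA the diets gave a log2 fold change of 0.18 ± 0.29 (edgeR adjusted p = 0.881).

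Agpat2 and Agpat3, which both acylate lysophosphatidic acid in the same step, went in opposite directions with PFOA on the control diet. Agpat2 (ENSMUSG00000026922.13, chr2:26593057-26604417, minus strand), whose loss causes lipodystrophy in humans and mice, was at 163, 193, 236.2 and 217 CPM in CD_PFOA, against 346, 336, 352 and 304 CPM in CD_vehicle. Every CD_PFOA liver was below every CD_vehicle liver, and the log2 fold change was −0.72 ± 0.11 (edgeR adjusted p = 3.93e-05). In the high-fat diet livers Agpat2 was at 233.5, 235.9, 194 and 232 CPM in HFD_PFOA, against 265, 250.1, 224.9 and 251 CPM in HFD_vehicle, and these groups overlapped (log2 fold change −0.15 ± 0.11, edgeR adjusted p = 0.403). Under vehicle Agpat2 was lower with the high-fat diet, with no overlap of the groups (log2 fold change −0.43 ± 0.11, edgeR adjusted p = 0.0126). With library totals in place of TMM, which moves the median of all genes in this comparison to 0.19, it was −0.21 (adjusted p = 0.134). The difference between the PFOA effects on the high-fat and the control diet was 0.58 ± 0.15, which missed the threshold in edgeR (adjusted p = 0.116) and passed it in DESeq2 (0.57, adjusted p = 0.0232) and in edgeR without CD_vehicle 4 (0.62, adjusted p = 0.0368) or with no filter on low counts (0.57, adjusted p = 0.0474).

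Agpat3 (ENSMUSG00000001211.15, chr10:78269178-78352489, minus strand) was at 333, 335, 363 and 414 CPM in CD_PFOA, against 321, 266, 292 and 279 CPM in CD_vehicle. All 4 CD_PFOA livers were above all 4 CD_vehicle livers, by a log2 fold change of 0.32 ± 0.09 (edgeR adjusted p = 0.0115). Without CD_PFOA 4 it was 0.25 (adjusted p = 0.0526). In HFD_PFOA Agpat3 was at 331 to 352 CPM, above the 279.5 to 320.2 CPM of HFD_vehicle, but the log2 fold change of 0.20 ± 0.09 did not pass the test (edgeR adjusted p = 0.130). Per kilobase of exon, the ratio of Agpat3 to Agpat2 averaged 0.423 in HFD_PFOA and 0.494 in CD_PFOA, against 0.329 in HFD_vehicle and 0.237 in CD_vehicle. The length used here and below was that of all annotated exons of a gene, not of the transcripts expressed. Levels of different genes can therefore be set side by side only roughly. Reads were not stranded, and 64 bases of Agpat2 exon overlap Egfl7 on the opposite strand (4550 counts over the 16 libraries).

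**Figure D2:**
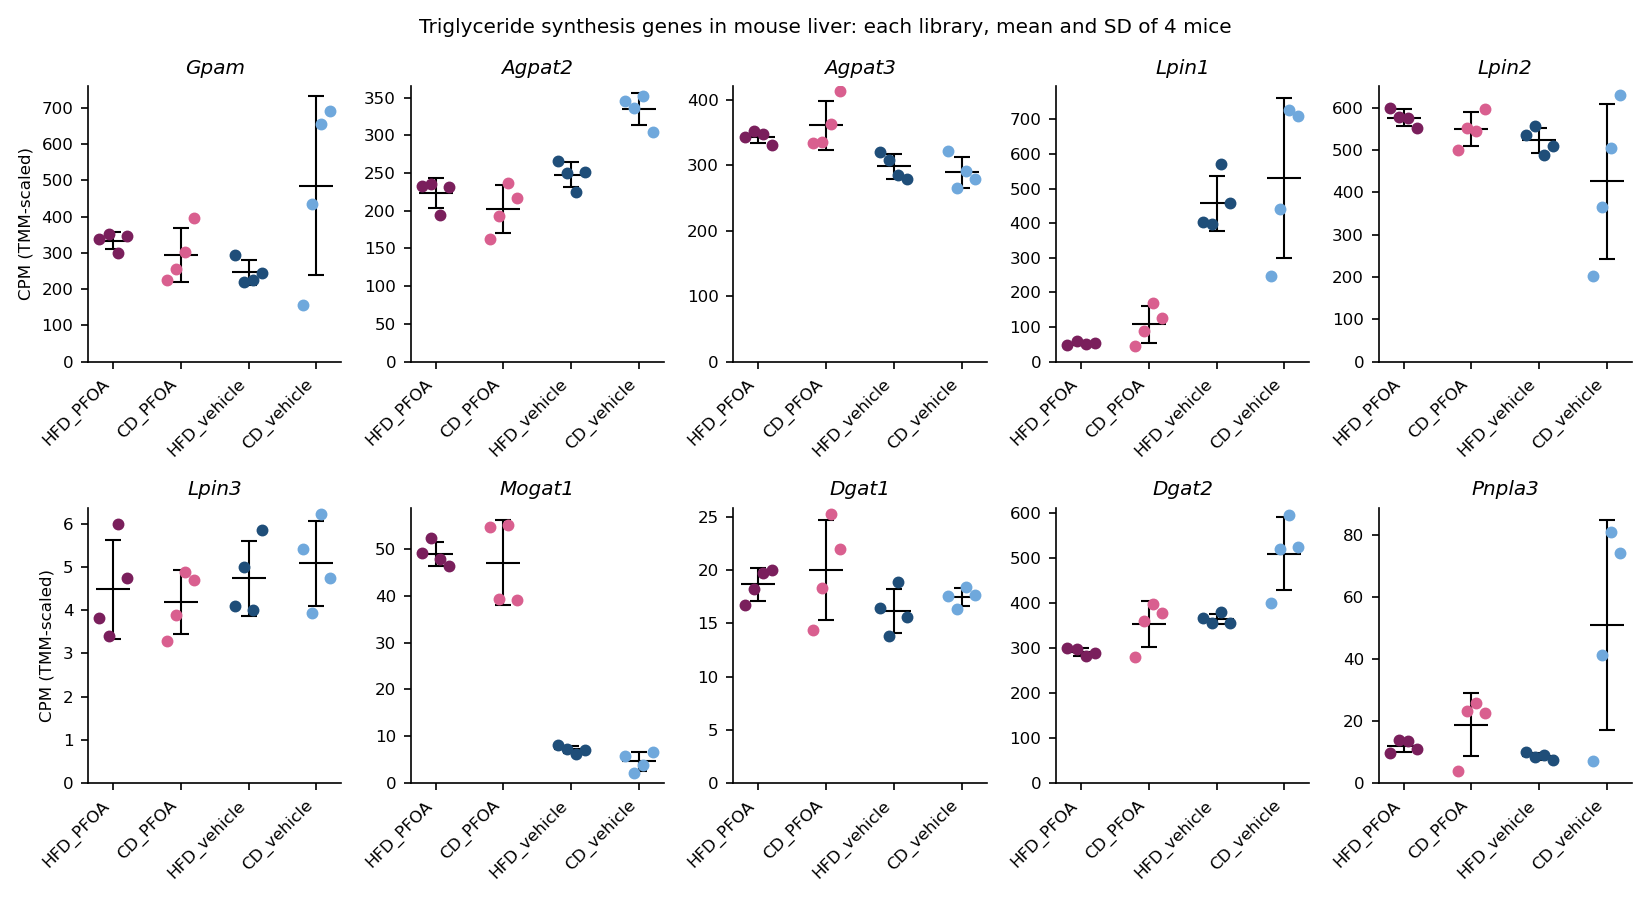
Level of each of the 10 enzymes in every liver (CPM, vertical axis, 1 panel per gene; points are mice, the bar the mean and the error bar the SD of 4 mice), with groups in the order HFD_PFOA, CD_PFOA, HFD_vehicle, CD_vehicle. Mogat1 is at 39.2 to 55.1 CPM in the 8 PFOA livers and at 2.198 to 8.15 CPM in the 8 vehicle livers.

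Of the lipins, Lpin1 was lower with PFOA on both diets, and Lpin2 and Lpin3 were not called in any comparison. Lpin1 (ENSMUSG00000020593.15, chr12:16535669-16610966, minus strand), the phosphatidate phosphatase that is also a PPARA coactivator, was at 46.9, 59.7, 51.4 and 54.8 CPM in HFD_PFOA, against 404, 396, 571 and 457 CPM in HFD_vehicle. In the control diet livers it was at 44.6, 89.6, 169.5 and 125 CPM in CD_PFOA, against 247, 439.9, 727 and 708 CPM in CD_vehicle. No PFOA liver reached the lowest vehicle liver on its own diet. Lpin1 was 8.59-fold lower with PFOA on the high-fat diet (log2 fold change −3.10 ± 0.34, edgeR adjusted p = 1.67e-06) and 4.95-fold lower on the control diet (−2.31 ± 0.33, adjusted p = 2.62e-05). Both calls were kept in all 16 fits that left out 1 library, with log2 fold changes of −3.17 to −2.98 and −2.62 to −2.05. The difference between diets was −0.80 ± 0.44 (edgeR adjusted p = 0.543), and the diet itself gave −0.21 ± 0.31 under vehicle (adjusted p = 0.742) and −1.01 ± 0.32 under PFOA (adjusted p = 0.221).

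Lpin2 (ENSMUSG00000024052.17, chr17:71182560-71249817, plus strand), a lipin abundant in liver, averaged 576 ± 19.8 CPM in HFD_PFOA and 523 ± 29.7 CPM in HFD_vehicle. It averaged 549 ± 40.2 CPM in CD_PFOA and 426 ± 184 CPM in CD_vehicle (SD, n = 4 each). In CD_vehicle the 4 livers were at 203, 367, 505 and 630.3 CPM, a wider range than all 12 other livers together (489 to 599.6 CPM). PFOA gave a log2 fold change of 0.14 on the high-fat diet (95% interval −0.29 to 0.57, edgeR adjusted p = 0.729) and of 0.37 on the control diet (−0.06 to 0.80, adjusted p = 0.217). The value on the control diet was 0.61 without CD_vehicle 4 (adjusted p = 0.0179) and 0.13 without CD_vehicle 1. Lpin3 (ENSMUSG00000027412.12, chr2:160880670-160906002, plus strand), the least abundant lipin, was at 3.28 to 6.23 CPM in all 16 livers (60 to 154 counts). Its log2 fold change with PFOA was −0.08 on the high-fat diet (95% interval −0.57 to 0.41) and −0.28 on the control diet (−0.76 to 0.21), and neither was called (edgeR adjusted p = 0.879 and 0.431).

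Per kilobase, the share of lipin RNA that was Lpin1 was 8.85% to 11.4% in HFD_PFOA and 9.94% to 27.6% in CD_PFOA, against 46.7% to 59.0% in HFD_vehicle and 58.1% to 63.6% in CD_vehicle. The mean share of Lpin2 was 87.5% in HFD_PFOA, 79.3% in CD_PFOA, 47.1% in HFD_vehicle and 38.2% in CD_vehicle. The summed level of the 3 lipins was 53.8 ± 1.26 CPM per kilobase in HFD_PFOA, 57.1 ± 8.07 in CD_PFOA, 91.3 ± 6.08 in HFD_vehicle and 91.1 ± 38.4 in CD_vehicle (SD, n = 4 each). CD_vehicle 1, at 43.6 CPM per kilobase, had a lower lipin sum than all 4 HFD_PFOA livers.

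**Figure D3:**
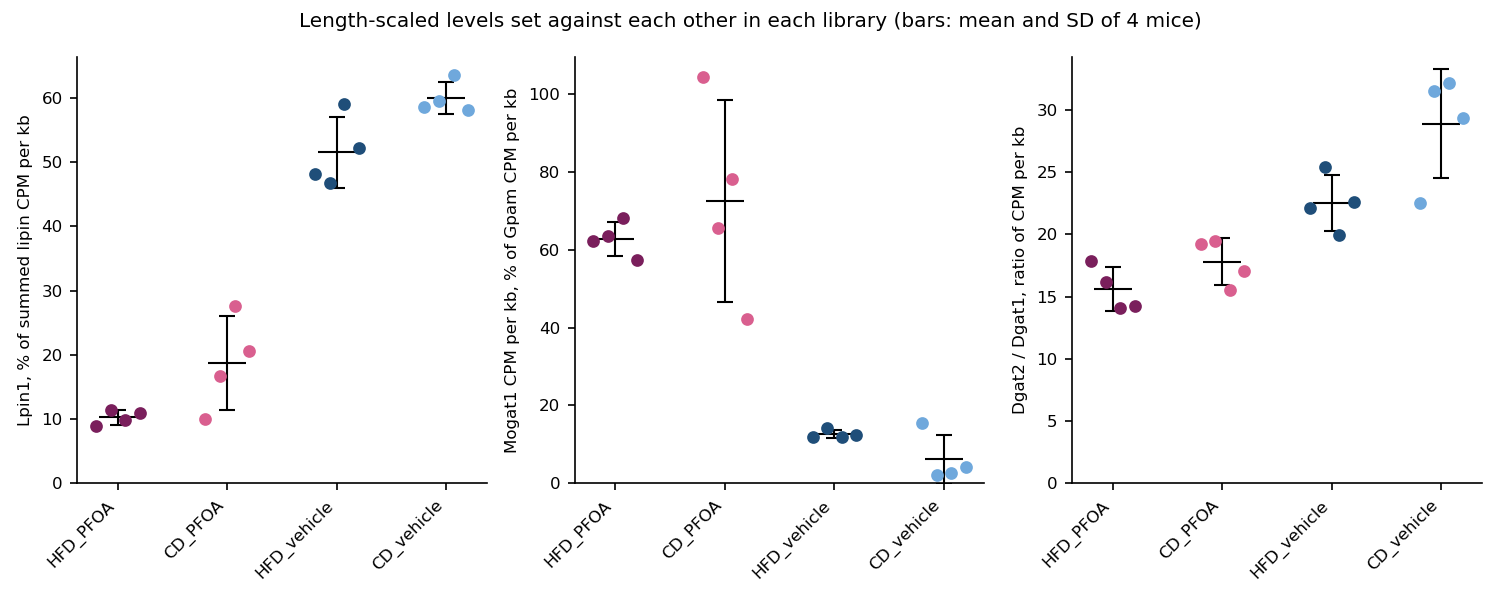
Ratios within the pathway in every liver, computed per kilobase of exon and shown by group (points are mice, bars the mean and SD of 4 mice): the Lpin1 share of lipin RNA in percent, Mogat1 as percent of Gpam, and Dgat2 over Dgat1. The Lpin1 share is at most 27.6% in PFOA livers and at least 46.7% in vehicle livers; the SD bar of Mogat1 in CD_vehicle is cut at 0.

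Mogat1 (ENSMUSG00000012187.13, chr1:78510991-78538173, plus strand), the monoacylglycerol acyltransferase, had the widest fold change of the 10 with PFOA on the control diet. It was at 49.1, 52.4, 47.8 and 46.4 CPM in HFD_PFOA, against 8.15, 7.35, 6.26 and 7.16 CPM in HFD_vehicle. On the control diet it was at 54.7, 39.3, 55.1 and 39.2 CPM in CD_PFOA, against 5.71, 2.198, 3.89 and 6.62 CPM in CD_vehicle. The PFOA livers of both diets occupied the same range, far above every vehicle liver. The rise was 6.73-fold on the high-fat diet (log2 fold change 2.75 ± 0.21, edgeR adjusted p = 1.66e-08) and 10.2-fold on the control diet (3.35 ± 0.22, adjusted p = 1.39e-09). Leaving out each library in turn kept both calls in 16 of 16 fits, at 2.69 to 2.82 and at 3.12 to 3.57. The difference between the PFOA effects on the high-fat and the control diet was −0.59 ± 0.30 (edgeR adjusted p = 0.483).

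Among vehicle livers, Mogat1 averaged 7.23 ± 0.774 CPM in HFD_vehicle and 4.605 ± 1.97 CPM in CD_vehicle (SD, n = 4 each). That log2 fold change of 0.65 ± 0.22 missed the threshold in edgeR (adjusted p = 0.0708) and passed it in DESeq2 (0.66, adjusted p = 0.0263). It was also called with library totals (0.86, edgeR adjusted p = 0.0202), with no filter on low counts (0.66, adjusted p = 0.00766), and without CD_vehicle 1 (0.77, adjusted p = 0.0451) or CD_vehicle 4 (0.88, adjusted p = 0.00919). Per kilobase, Mogat1 was 57.4% to 68.2% of Gpam in HFD_PFOA and 42.3% to 104% in CD_PFOA, against 11.8% to 14.2% in HFD_vehicle and 2.16% to 15.6% in CD_vehicle, where the highest value was that of CD_vehicle 1 with its low Gpam. The mean levels per kilobase were 31.4 CPM for Mogat1 and 50.1 CPM for Gpam in HFD_PFOA, 30.2 and 44.2 CPM in CD_PFOA, 4.64 and 37.0 CPM in HFD_vehicle, and 2.96 and 72.9 CPM in CD_vehicle. Of Mogat1 exon, 200 bases overlap BC035947 on the opposite strand, which had 453 counts over the 16 libraries, while Mogat1 had 48 to 1317 counts in each. Of the adipocyte markers, Lep was at 0 in every library, and Adipoq and Plin1 did not exceed 0.458 and 0.375 CPM. The summed adipocyte markers were nevertheless 18.6 to 25.3 CPM in HFD_PFOA and 19.4 to 24.3 CPM in CD_PFOA, against 6.70 to 12.01 CPM in HFD_vehicle and 7.65 to 15.8 CPM in CD_vehicle. Of the 2 markers tested, Lipe, the hormone-sensitive lipase that liver also transcribes, rose with PFOA on both diets, by a log2 fold change of 1.83 on the high-fat diet (edgeR adjusted p = 7.89e-09) and of 1.48 on the control diet (adjusted p = 8.73e-08), and Cfd was not called.

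Of the 2 enzymes of the last step, which are unrelated in sequence, Dgat2 was called lower with PFOA on the control diet and Dgat1 was not called. Dgat1 (ENSMUSG00000022555.11, chr15:76502015-76511953, minus strand), the endoplasmic reticulum enzyme that re-esterifies incoming fatty acids, was at 16.7, 18.2, 19.8 and 19.98 CPM in HFD_PFOA, against 16.4, 13.8, 18.9 and 15.6 CPM in HFD_vehicle. It was at 14.4, 18.3, 25.3 and 22.002 CPM in CD_PFOA, against 17.6, 16.3, 18.4 and 17.6 CPM in CD_vehicle. The groups overlapped on both diets, and Dgat1 was called in none of the 5 comparisons. Its log2 fold change with PFOA was 0.21 on the high-fat diet (95% interval −0.09 to 0.51, edgeR adjusted p = 0.378) and 0.20 on the control diet (−0.10 to 0.50, adjusted p = 0.360).

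Dgat2 (ENSMUSG00000030747.5, chr7:99153658-99182719, minus strand), the enzyme tied to newly made fatty acids, was at 280.0, 359.7, 397 and 378 CPM in CD_PFOA, against 400.4, 519, 596 and 523 CPM in CD_vehicle. All 4 CD_PFOA livers lay below the lowest CD_vehicle liver, by a log2 fold change of −0.53 ± 0.11 (edgeR adjusted p = 0.00177). On the high-fat diet it was at 300.3, 298, 281 and 288 CPM in HFD_PFOA, against 366, 354, 379 and 356 CPM in HFD_vehicle. These groups did not overlap either, with SDs of 8.90 and 11.3 CPM, but the log2 fold change of −0.32 ± 0.11 missed the threshold (edgeR adjusted p = 0.0606). It passed in DESeq2 (adjusted p = 0.0446), with library totals (0.0193), in a fit of the 2 groups alone (0.00248) and without CD_PFOA 1, CD_vehicle 1 or CD_vehicle 3. Among vehicle livers the high-fat diet gave −0.48 ± 0.11 (edgeR adjusted p = 0.00933), with no overlap, and −0.27 with library totals (adjusted p = 0.0838). Per kilobase, Dgat2 over Dgat1 averaged 15.6 ± 1.77 in HFD_PFOA, 17.8 ± 1.87 in CD_PFOA, 22.5 ± 2.26 in HFD_vehicle and 28.9 ± 4.40 in CD_vehicle (SD, n = 4 each).

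The hepatocyte markers fell beside Lpin1 on both diets and beside Agpat2, Dgat2 and Pnpla3 on the control diet. Those 3 were not called with PFOA on the high-fat diet in the edgeR fit over all 16 libraries. There the log2 fold change was −0.32 ± 0.11 in Dgat2, with no overlap of the groups and a call in DESeq2. It was −0.15 ± 0.11 in Agpat2 and 0.48 ± 0.53 in Pnpla3. With PFOA, 8 of the 10 markers fell and 0 rose on each diet, with a median log2 fold change of −0.45 on the high-fat diet and −0.81 on the control diet. Of all genes tested, 7.91% and 12.6% were called lower there. With the high-fat diet under vehicle, 6 of 10 fell and 0 rose (median −0.58), beside 5.21% of all genes called lower. Macrophage and Kupffer cell markers rose with the high-fat diet under vehicle in 6 of 11 cases and fell in 0 (median 0.94), with summed levels of 464 to 701 CPM in HFD_vehicle and 206 to 402 CPM in CD_vehicle. In that comparison 5.19% of all genes were called higher. With PFOA, 0 of the 11 were called on the high-fat diet and 1, Gpnmb, was higher on the control diet. Of all genes, 16.5% and 24.4% were called with PFOA on these diets. The part of these cell markers in the results for the enzymes was not tested.

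Pnpla3 (ENSMUSG00000041653.4, chr15:84167837-84187236, plus strand) had the widest spread between mice on the control diet. It was at 9.79, 13.8, 13.7 and 10.97 CPM in HFD_PFOA, against 9.96, 8.37, 9.13 and 7.32 CPM in HFD_vehicle. In the control diet livers it was at 3.74, 23.3, 25.7 and 22.7 CPM in CD_PFOA, against 7.13, 41.4, 81.0 and 74.2 CPM in CD_vehicle. Replicate 1 of each control diet group stood far below the other 3, below every high-fat diet vehicle liver, and the 2 control diet groups overlapped through CD_vehicle 1. PFOA gave a log2 fold change of 0.48 ± 0.53 on the high-fat diet (edgeR adjusted p = 0.625) and of −1.43 ± 0.51 on the control diet (adjusted p = 0.0446). In a fit of the 2 high-fat diet groups alone, Pnpla3 was called higher with PFOA (0.47, edgeR adjusted p = 0.0375). The call on the control diet was close to the threshold. It was lost in 14 of the 16 fits that left out 1 library, and with DESeq2 (adjusted p = 0.0681), library totals (0.0575) or the 2 groups alone (0.153). It was kept without CD_PFOA 3 and without CD_vehicle 1 (−1.80, edgeR adjusted p = 0.00121). Leaving out CD_vehicle 1 and CD_PFOA 1 together, an alternative chosen after seeing the data, gave −1.45 (edgeR adjusted p = 2.92e-05).

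Under vehicle Pnpla3 was lower with the high-fat diet, with CD_vehicle 1 below all 4 HFD_vehicle livers and the other 3 CD_vehicle livers above them. The log2 fold change was −2.55 ± 0.53 (edgeR adjusted p = 0.00483), and the call held in 16 of 16 fits without 1 library, at −2.91 to −2.23. Under PFOA the diet gave −0.64 ± 0.51 (edgeR adjusted p = 0.712). Between the PFOA effects on the high-fat and the control diet the difference was 1.91 ± 0.73, which did not pass the test (edgeR adjusted p = 0.303) except without CD_vehicle 1 (2.27, adjusted p = 0.0469), without both replicates 1 of the control diet, or with no filter on low counts.

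On the log2(CPM + 0.5) scale, CD_vehicle 1 differed from the mean of the other 3 livers of its group by −3.05 in Pnpla3, −1.89 in Gpam, −1.30 in Lpin1 and −1.27 in Lpin2. CD_PFOA 1 differed by −2.52 in Pnpla3, −1.47 in Lpin1 and −0.57 in Dgat1. Over the 10 members the median coefficient of variation among the 4 mice was 7.61% in HFD_PFOA, 18.5% in CD_PFOA, 11.8% in HFD_vehicle and 30.9% in CD_vehicle. The highest were 25.6% in HFD_PFOA, 53.9% in CD_PFOA, 18.5% in HFD_vehicle and 66.7% in CD_vehicle.

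**Figure D4:**
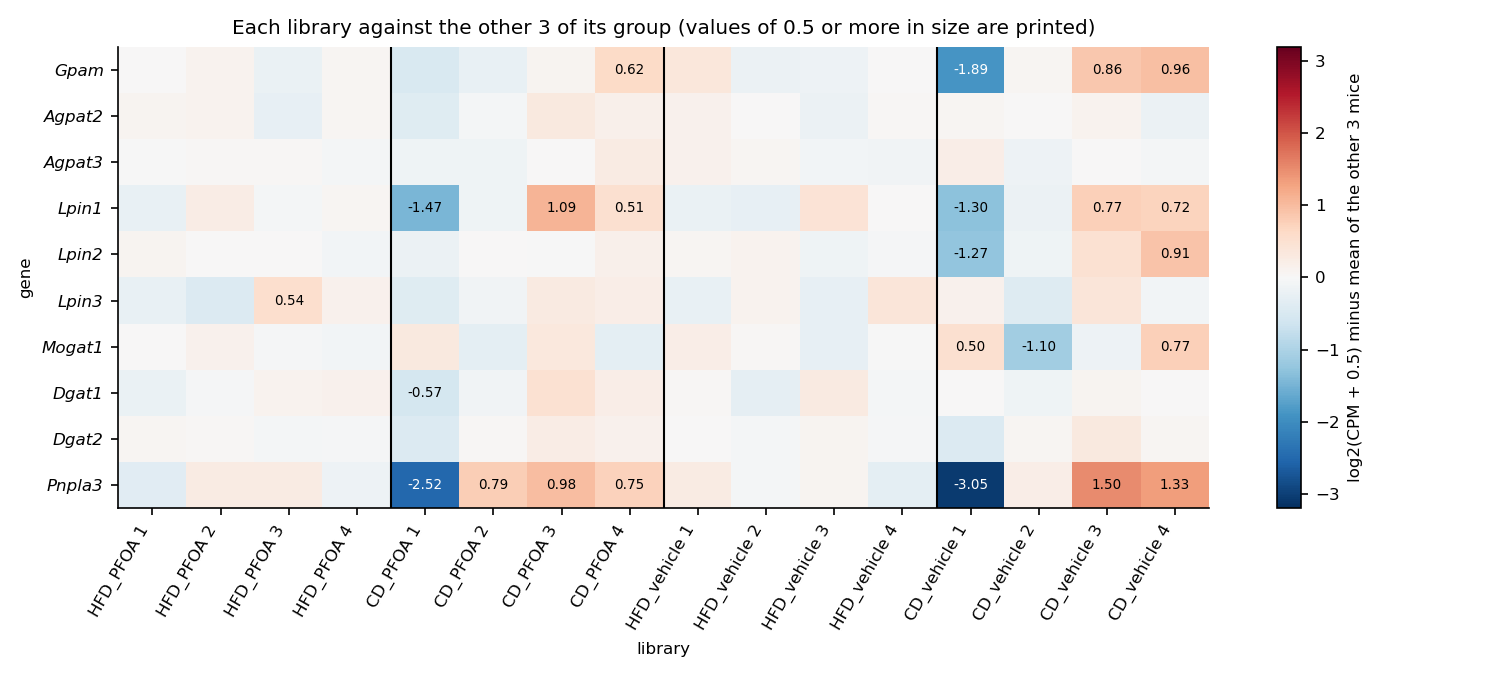
Difference of each library from the mean of the other 3 of its group, in log2(CPM + 0.5), for the 10 enzymes (rows) in the 16 livers (columns, by group). CD_vehicle 1 is 3.05 lower in Pnpla3 and 1.89 lower in Gpam, and CD_PFOA 1 is 2.52 lower in Pnpla3.

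With the high-fat diet under PFOA, 0 of the 10 enzymes were called, and Lpin1 (log2 fold change −1.01 ± 0.32) and Dgat2 (−0.28 ± 0.11, edgeR adjusted p = 0.367) had an unadjusted p under 0.05. CD_PFOA 1 lay just below the HFD_PFOA range in Lpin1 (44.6 CPM, against 46.9 to 59.7 CPM in HFD_PFOA) and in Dgat2 (280.0 CPM, against 281 to 300.3 CPM in HFD_PFOA). Without CD_vehicle 1 and CD_PFOA 1 together, Lpin1, Dgat2 and Pnpla3 were called lower in HFD_PFOA than in CD_PFOA, and Lpin1 was also called with no filter on low counts (−1.01, edgeR adjusted p = 8.2e-04). The remaining diet effects were not called: under vehicle and under PFOA the log2 fold changes were 0.04 and −0.07 in Agpat3, 0.29 and 0.07 in Lpin2, −0.10 and 0.10 in Lpin3, and −0.11 and −0.10 in Dgat1. The interaction was −0.12 in Agpat3, −0.22 in Lpin2, 0.20 in Lpin3, 0.01 in Dgat1 and 0.21 in Dgat2, none of them called. With library totals in place of TMM, the sign turned in Lpin3 (0.12) and Dgat1 (0.10) under vehicle, in Agpat3 (0.022) and Dgat1 (0.0035) under PFOA, and in the Dgat1 interaction (−0.10). The PFOA comparison and the diet comparison on the control side share the CD_vehicle livers, so the values of a gene in both are not independent.

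Among enzymes that supply acyl-CoA and glycerol phosphate to the acyltransferases, those called with PFOA were all acyl-CoA synthetases, and all rose. Of 7 tested, 4 rose and 0 fell on the high-fat diet, beside 16.5% of all genes called. On the control diet 2 rose and 0 fell, beside 24.4% of all genes. The glycerol phosphate genes Gpd1, Gpd1l and Gk were called on neither diet. Acsl1, the main long-chain acyl-CoA synthetase of liver and a PPARA target, rose 4.06-fold on the high-fat diet (log2 fold change 2.02 ± 0.14, edgeR adjusted p = 2.84e-09) and 3.201-fold on the control diet (1.68 ± 0.14, adjusted p = 2.66e-08). Acsl4, which prefers arachidonic acid, had log2 fold changes of 0.88 ± 0.18 and 0.89 ± 0.18, both called. Acsl3 (0.74 ± 0.12) and Acsl5 (0.84 ± 0.15) were called higher with PFOA on the high-fat diet, and with the high-fat diet under vehicle they were called lower (−0.57 and −0.64).

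Other genes of the glycerol phosphate route or its regulation numbered 11. With PFOA on the high-fat diet 1 rose and 0 fell, beside 16.5% of all genes called. On the control diet 2 rose and 0 fell, beside 24.4% of all genes. The 1 common to both was Gpat3, the glycerol phosphate acyltransferase of the endoplasmic reticulum that is abundant in fat tissue. Gpat3 was at 42.5, 61.0, 45.4 and 51.1 CPM in HFD_PFOA, against 9.50, 10.4, 11.3 and 11.2 CPM in HFD_vehicle. It was at 52.0, 57.4, 47.5 and 53.8 CPM in CD_PFOA, against 6.55, 3.43, 5.53 and 6.28 CPM in CD_vehicle. As with Mogat1, no PFOA liver came near a vehicle liver. The rise was 4.72-fold on the high-fat diet (log2 fold change 2.24 ± 0.15, edgeR adjusted p = 2.89e-09) and 9.65-fold on the control diet (3.27 ± 0.16, adjusted p = 2.94e-11). The difference between these PFOA effects was −1.03 ± 0.22 and narrowly missed the threshold (edgeR adjusted p = 0.0547). Unlike Gpam, Gpat3 was higher with the high-fat diet under vehicle (log2 fold change 0.96 ± 0.16, edgeR adjusted p = 9.47e-04), as was the phosphatidate phosphatase Plpp2 (0.87 ± 0.17, adjusted p = 0.00268). Plpp2 also rose with PFOA on the control diet (0.74 ± 0.17, edgeR adjusted p = 0.00282). Of 3 other acyltransferases that can make diacylglycerol or triglyceride, 2 were tested (Mogat2 and Tmem68), and neither was called in any comparison.

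**Figure D5:**
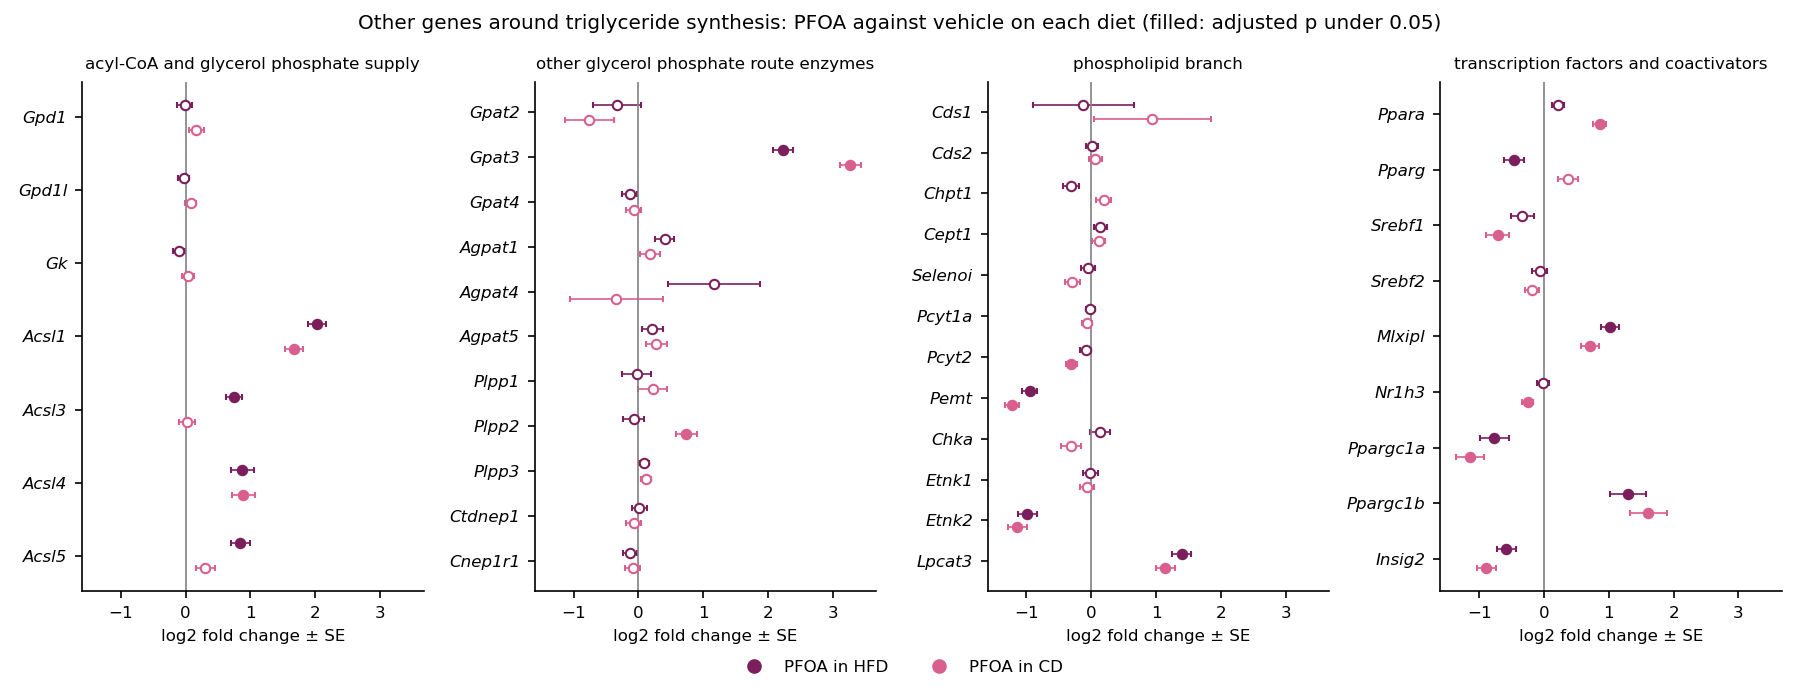
Log2 fold change with PFOA (horizontal axis) for the tested genes of the supply, route, phospholipid and regulator lists on each diet, with the high-fat diet above the control diet; bars are the SE of the edgeR fit and filled points are calls at adjusted p under 0.05. Gpat3 (2.24 and 3.27) and Acsl1 (2.02 and 1.68) lie farthest to the right among the route and supply genes.

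Diacylglycerol and phosphatidic acid also feed phospholipid synthesis. Of the 12 genes of that branch, 1 rose and 2 fell with PFOA on the high-fat diet, beside 16.5% of all genes called. On the control diet 1 rose and 3 fell, beside 24.4% of all genes. Lpcat3, which inserts polyunsaturated fatty acids into phosphatidylcholine, rose on both (log2 fold change 1.39 ± 0.15 on the high-fat and 1.15 ± 0.15 on the control diet). Pemt, which makes phosphatidylcholine from phosphatidylethanolamine in liver, fell on both (−0.95 ± 0.11 and −1.22 ± 0.11), as did the ethanolamine kinase Etnk2 (−0.98 ± 0.14 and −1.14 ± 0.14). With the high-fat diet under vehicle, 1 gene, the cholinephosphotransferase Chpt1, rose (0.43 ± 0.12), and 3 fell, among them Pemt (−0.64 ± 0.11). In that comparison 10.4% of all genes were called.

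Of 9 transcription factors and coactivators, 2 rose and 3 fell with PFOA on the high-fat diet, beside 16.5% of all genes called. On the control diet 3 rose and 4 fell, beside 24.4% of all genes. Mlxipl, which encodes the carbohydrate-responsive factor ChREBP, rose on both diets, by a log2 fold change of 1.02 ± 0.14 on the high-fat diet (edgeR adjusted p = 3.10e-05) and of 0.71 ± 0.14 on the control diet (adjusted p = 8.77e-04). Ppargc1b, a coactivator of SREBP-1c, rose on both diets (1.30 ± 0.28 and 1.61 ± 0.28), and Ppargc1a, the coactivator known to induce Lpin1, fell on both (−0.76 ± 0.22 and −1.14 ± 0.22). Insig2, which holds SREBP precursors in the endoplasmic reticulum, also fell on both (−0.58 ± 0.14 and −0.89 ± 0.15). Ppara itself rose with PFOA on the control diet (0.86 ± 0.10, edgeR adjusted p = 1.81e-06). On the high-fat diet it was not called higher, at a mean of 130 CPM in HFD_PFOA against 112 CPM in HFD_vehicle. The difference between these PFOA effects, −0.64 ± 0.14, missed the threshold (edgeR adjusted p = 0.0558). Under vehicle Ppara (0.75 ± 0.10) and Pparg, the fat cell factor (0.63 ± 0.15), were higher with the high-fat diet, and Nr1h3, which encodes LXR alpha, was lower (−0.33 ± 0.09). Pparg averaged 19.9 CPM in HFD_PFOA against 27.4 CPM in HFD_vehicle, and 22.9 CPM in CD_PFOA against 17.7 CPM in CD_vehicle. Its interaction of −0.83 ± 0.22 was not called (edgeR adjusted p = 0.116). Srebf1, named here after its values were seen, was lower with PFOA on the control diet (−0.72 ± 0.18, edgeR adjusted p = 0.00556) and not called on the high-fat diet (−0.34, adjusted p = 0.229) or with the high-fat diet under vehicle (−0.11, adjusted p = 0.772).

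The genes whose log2(CPM + 0.5) over the 16 livers was most like that of a called member were looked up for the 7 members called in any comparison. Among the 3 most like Lpin1 was Tkfc (Pearson r = 0.98, Spearman rho = 0.96), which encodes triokinase. Mogat1 was most like Acsf2 (r = 0.99, rho = 0.92), a mitochondrial acyl-CoA synthetase. Dgat2 was most like Insig1 (r = 0.96, rho = 0.92), which restrains SREBP processing. Pnpla3 was most like its family member Pnpla5 (r = 0.96, rho = 0.88), and, after Pdzk1ip1, Dhcr7 of cholesterol synthesis (r = 0.92, rho = 0.94). Gpam was most like Dlat (r = 0.91, rho = 0.88), a subunit of the pyruvate dehydrogenase complex, Agpat2 like Selenok (r = 0.93, rho = 0.88) and Agpat3 like Afg3l2 (r = 0.90, rho = 0.90). These livers fall into groups, and a shared group difference raises each value.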

How the data were processed

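The authors deposited raw read counts per gene (whole numbers). The submitters' processing notes list GRCm38 (mm10), STAR 2.5.2b, featureCounts, Subread 1.6.0, Trimmomatic 0.33 and bcl2fastq 2.20.0.422; per the labels' protocols, libraries were not stranded. The annotation release is not stated there.

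Groups came from the labels of diet and treatment. Low genes were removed with filterByExpr (edgeR 4.0.16, 4 groups), and the rest were scaled by TMM and fitted together over 16 libraries (glmQLFit, glmQLFTest, 12 residual degrees of freedom, common biological coefficient of variation 0.242), in R 4.3.3. Contrasts were PFOA on each diet, the diet under each treatment, and the interaction. Benjamini-Hochberg adjustment ran over all genes tested. The SE is the log2 fold change over the square root of F. Ratios used the combined length of all exons of a gene in GENCODE M21, which matched 53360 of 53465 gene IDs without version. Replicates of a group differed by more than sampling noise (8.13 to 138 chi-square units per degree of freedom between pairs). Pairs that held CD_vehicle 1 were at 122 to 138, and no other pair was above 53.7. Intervals use the moderated degrees of freedom of the fit. Alternatives were DESeq2 1.42.0, library totals, no filter, only the groups compared, and each library left out. All 10 members are named; of each list, up to 4 genes with the smallest p per contrast may be named, and of genes most like a called member the 3 with the highest r at a mean of at least 1 CPM, of which 1 is not reported here. The members and lists were chosen with earlier results of these data known.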

Additional observations from a re-analysis of the deposited data

Results flagged for a closer look

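Over 40 groups of 4 livers (10 enzymes in 4 groups), 2 held a liver whose gap to the nearest other liver took more of the group's range than Dixon's 95% criterion allows, and chance gives about 1 in 20. Pnpla3 in CD_PFOA 1 was at 3.74 CPM, with a gap of 0.865 of the range to the other 3 livers (22.7 to 25.7 CPM). Agpat2 in HFD_PFOA 3 was at 194 CPM, with a gap of 0.901 of the range to the other 3 (232 to 235.9 CPM).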

How the results depend on the processing

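No paired analysis was possible because replicate numbers follow the order of the records and pair no mice. Of 1040 values of single enzymes under 21 alternatives, 954 kept direction and side of the threshold, 28 lost a call, 34 gained one and 24 changed sign, 0 of the last called before. Members called with PFOA on the high-fat diet were 2 in the fit reported, 5 in a fit of the 2 groups alone (with Gpam and Pnpla3 higher and Dgat2 lower) and 4 without CD_vehicle 1 and CD_PFOA 1 together (an alternative added after seeing the data). All genes called in these fits were 2476 of 14998, 3411 of 14008 and 2897 of 15286, so calls over all genes also rose. With the diet under vehicle, library totals called 2 members in place of 4 (Mogat1 higher, Pnpla3 lower), beside 2340 of 14998 genes in place of 1561. That scaling moves the all-gene median log2 fold change from −0.03 to 0.19, and the interaction's to −0.10. It calls 11 genes higher and 1 lower with the diet under PFOA (7 and 2 with TMM), and 6 higher and 38 lower in the interaction (10 and 21 with TMM). With the diet under PFOA, members called were 0, against 1 with no filter and 3 without both libraries. In the interaction they were 0, against 1 by DESeq2, 3 with no filter, 2 without both libraries, and 0 to 2 without 1 library. Without 1 library, 5 to 7, 2 to 3, 3 to 5 and 0 members were called in the other comparisons. In those fits 3072 to 3971 genes were called with PFOA on the control diet and 1990 to 2809 on the high-fat diet. Genes called with the diet under vehicle were 1561, 896 in a fit of the 2 groups alone and 881 (without HFD_vehicle 4) to 2272 (without CD_vehicle 4) without 1 library. With the diet under PFOA they were 9, against 179 by DESeq2, 2.3e+02 with no filter (142 higher and 83 lower), 129 for the 2 groups alone, 124 without both libraries and 1 (without HFD_PFOA 4 or CD_PFOA 4) to 56 (without CD_vehicle 4) without 1. In the interaction they were 31, against 223 by DESeq2, 290 with no filter, 91 without both and 13 (without HFD_PFOA 4 or HFD_vehicle 4) to 352 (without CD_vehicle 4) without 1. The values that changed sign had not been called. With library totals, Lpin3 was 0.12 and Dgat1 0.10 for the diet under vehicle, Agpat3 0.022 and Dgat1 0.0035 for the diet under PFOA, and Dgat1 −0.10 in the interaction. Without both libraries, Lpin3 was −0.0026 for the diet under PFOA and Dgat1 −0.12 in the interaction. Without 1 library, Lpin3 ran from −0.25 to 0.039 with PFOA on the high-fat diet, from −0.22 to 0.018 for the diet under vehicle and from −0.073 to 0.21 for the diet under PFOA. There, Agpat3 ran from −0.11 to 0.00015, Mogat1 from −0.021 to 0.15 and Dgat1 from −0.23 to 0.037. In the interaction, Lpin2 ran from −0.47 to 0.0051 and Dgat1 from −0.12 to 0.15. The cause of these changes was not tested. Lpin3 rested on 60 to 154 counts a library and Mogat1 on as few as 48.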

Other observations

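Genes of the circadian clock, several of which act on hepatic lipid synthesis, were among the genes that moved with PFOA. Of 15 tested, 6 were higher and 4 lower with PFOA on the high-fat diet, beside 16.5% of all genes called. On the control diet 8 were higher and 4 lower, beside 24.4% of all genes. Dbp, an output gene of the clock, was at 31.1, 21.04, 19.3 and 18.5 CPM in HFD_PFOA, against 3.78, 2.499, 5.80 and 4.18 CPM in HFD_vehicle. In the control diet livers it was at 24.4, 42.6, 31.6 and 23.1 CPM in CD_PFOA, against 0.584, 0.275, 2.01 and 2.43 CPM in CD_vehicle. No PFOA liver overlapped the vehicle livers of its diet, and the log2 fold changes were 2.48 ± 0.36 (edgeR adjusted p = 5.42e-05) and 4.52 ± 0.41 (adjusted p = 9.95e-08). Arntl, which encodes the core activator BMAL1, fell on both diets (−0.96 ± 0.16 and −1.85 ± 0.17), as did the repressor Cry1 (−1.60 ± 0.24 and −2.06 ± 0.24). With the high-fat diet under vehicle, 2 were higher (Dbp and Nr1d2) and 0 lower, beside 10.4% of all genes called. The labels used here state no time of day for the livers, and its part in these values was not tested. B cell markers fell in 2 of 8 cases with PFOA on the control diet and in 1 of 8 with the high-fat diet under vehicle, both of which use CD_vehicle 4. Of all genes, 12.6% and 5.21% were called lower in these comparisons. Of the 6 enterocyte markers, 2 were tested, 1 of which fell with PFOA on each diet, and 0 of the 6 skeletal muscle markers had enough counts to be tested.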
